A study of Mus musculus and Rattus norvegicus with 32 samples.

Results

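Polycomb repressive complex 2 (PRC2) was followed through 10 genes, namely Suz12, Eed, Ezh2, Ezh1, Rbbp4, Rbbp7, Mtf2, Phf19, Jarid2 and Aebp2. Their rows were picked by gene symbol, without use of any measured value, from the 55487 genes of the mouse tables and the 32883 genes of the rat table. The set of genes itself was chosen with earlier results of these data known. All 10 were found once in each of the 4 tables, and 10 of 10 passed the filter on low counts in every comparison.

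The data are RNA sequencing of 32 libraries in 8 groups of 4. METTL5 is a methyltransferase that places N6-methyladenosine (m6A) on ribosomal RNA, and the study addressed how METTL5 acts on hypertrophy of the heart through SUZ12 translation. The tables hold mRNA and show neither translation nor protein. Hearts came from C57BL/6 mice. At 1 month, mice with a knockout of METTL5 in the whole body (METTL5-KO) were compared with control littermates. At 3 months, METTL5-cKO mice, in which floxed Mettl5 exons are removed by Myh6-Cre, which is active in cardiomyocytes, were compared with control littermates. METTL5-cKO mice and control littermates labelled as 3 months old were also compared 4 weeks after transverse aortic constriction (TAC), a surgical narrowing of the aorta that overloads the left ventricle. Whether the control littermates carry Cre or floxed alleles is not given in the sources used here. Neonatal rat ventricular myocytes (NRVMs) of Sprague Dawley rats at postnatal day 2 were infected with adenovirus carrying GFP (AdGFP) or human METTL5 (AdMETTL5), and both groups then received the hypertrophic agonist phenylephrine (PE) at 20 μM for 24 h. No untreated NRVMs enter the comparison, so it shows METTL5 overexpression under PE only. The sources do not say whether the NRVM libraries came from separate cell isolations, so their p-values may measure technical spread only.

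PRC2 is the enzyme that methylates lysine 27 of histone H3, a mark of silenced genes. EZH2 or EZH1 carries the catalytic domain, EED reads the mark and stimulates the enzyme, SUZ12 is the scaffold that holds the complex together, and RBBP4 and RBBP7 are histone chaperones shared with other chromatin complexes. MTF2 and PHF19 are Polycomb-like subunits of one form of the complex, JARID2 and AEBP2 are subunits of another. EZH2 is the main methyltransferase of dividing and embryonic cells, whereas EZH1 persists in adult cells that no longer divide, as most cardiomyocytes do.

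Total counts per library ranged from 14324700 to 21804907. The AdMETTL5 libraries were the shallowest, with 14324700 to 14642431 counts against 17344430 to 18085339 in the AdGFP libraries. The count of whole Mettl5 did not separate the genotypes of the mice. Its log2 fold changes were 0.22 at 1 month, -0.18 at 3 months and -0.04 after TAC, and none passed the test. This count therefore does not check the genotypes, and the groups are taken from their labels. The count covers the whole gene, not the floxed exons alone. Exons of Mettl5 also overlap those of Gm13625 on the same strand and of Ssb on the other strand. From its RNA sequencing reads, the paper describes the floxed exons as almost undetectable in METTL5-cKO hearts. In NRVMs the rat Mettl5 count was higher with AdMETTL5 by 0.32 on the log2 scale (standard error 0.0723, adjusted p = 0.00295 in edgeR), and how far reads of the human transgene enter it was not tested. Transcripts of cardiomyocyte markers were abundant in every table, at a summed 42660 to 58368 CPM after TAC and 18270 to 58228 CPM in NRVMs. CPM are counts divided by library sizes that edgeR's TMM method scales so that the bulk of genes is equal between libraries.

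Over the 4 comparisons, PRC2 mRNAs were called mostly in NRVMs, the comparison in which most genes were called. A gene was called at an adjusted p under 0.05 in edgeR's quasi-likelihood test, with the adjustment made over all genes tested and no minimum fold change. In NRVMs 7 members were higher and 1 was lower with AdMETTL5, in the TAC hearts 1 member was lower in METTL5-cKO, and in unstressed hearts at 1 and 3 months none was called. The shares of all tested genes called in either direction followed the same order, at 52.8% in NRVMs, 12.7% after TAC, 0.0732% at 3 months and 0.00612% at 1 month. An absolute log2 fold change over 1 together with the adjusted p was reached by 0 of 10 members in each comparison, against 0.00612% (1 month), 0.0488% (3 months), 2.9% (TAC) and 5.85% (NRVMs) of all tested genes.

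**Figure D1:**
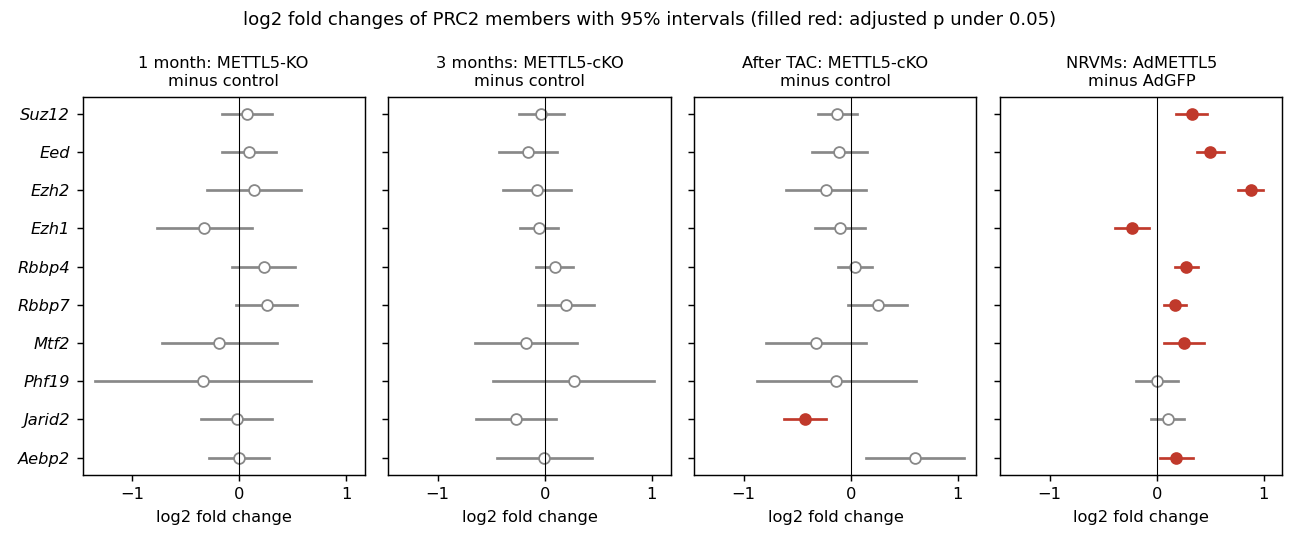
Each panel plots the log2 fold change (x axis, METTL5 group minus control) of the 10 PRC2 members (y axis) in 1 comparison, with points for the edgeR estimate, lines for its 95% interval and filled red symbols for an adjusted p under 0.05. In the NRVM panel 8 members are filled, in the TAC panel only Jarid2, and in the panels of 1 and 3 months none.

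The NRVM comparison asked which transcripts follow METTL5 overexpression in PE-treated cells. Of the core subunits, the transcript of the methyltransferase Ezh2 rose most. Ezh2 had 20.6, 22.9, 21.1 and 20.8 CPM in the AdGFP libraries and 39.5, 40.7, 38.1 and 38.8 CPM in the AdMETTL5 libraries. All 4 AdMETTL5 libraries lay far above all AdGFP libraries. The means of 21.4 ± 1.05 and 39.3 ± 1.14 CPM (SD, n = 4) differed by 0.88 on the log2 scale (1.84-fold, standard error 0.0545, 95% interval 0.76 to 1.00), with an adjusted p of 1.42e-07 in edgeR and an exact two-sided permutation p of 0.0286, the smallest that 4 against 4 libraries allow. The rise stood in a table where much moved, since 52.8% of the 15041 tested genes were called, 27.1% higher and 25.7% lower with AdMETTL5. By p, Ezh2 was the gene of rank 198 among them.

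The other core subunits of the enzyme rose less. Eed, the subunit that binds the histone mark, had 26.2, 24.7, 24.1 and 23.7 CPM with AdGFP and 35.0, 32.3, 35.8 and 36.1 CPM with AdMETTL5. Suz12, the scaffold, had 27.2, 27.4, 25.4 and 24.6 CPM with AdGFP and 33.9, 29.3, 33.4 and 34.5 CPM with AdMETTL5. For both genes every AdMETTL5 library was above every AdGFP library. The log2 fold change was 0.50 for Eed (1.41-fold, standard error 0.0579, adjusted p = 2.06e-05 in edgeR) and 0.32 for Suz12 (1.25-fold, standard error 0.0657, 95% interval 0.18 to 0.47, adjusted p = 0.00129 in edgeR). The exact permutation p was 0.0286 for each. From RNA sequencing and RT-PCR, the paper described Suz12 mRNA as not significantly altered with AdMETTL5. Its lists of dysregulated genes asked for an absolute log2 fold change over 1, which the 0.32 of Suz12 does not reach. The interval of Ezh2 lay above those of Eed and Suz12, and the difference between the genes was not tested as such.

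Ezh1, the alternative methyltransferase, was the only member that fell in NRVMs. It had 27.2, 29.3, 31 and 32.6 CPM with AdGFP and 24.6, 24.9, 24.2 and 28.4 CPM with AdMETTL5. The groups overlapped through a single AdMETTL5 library, the fourth, at 28.4 CPM, and the other three were below every AdGFP library. The log2 fold change was -0.23 (standard error 0.0723, 95% interval -0.39 to -0.07, adjusted p = 0.0170 in edgeR, exact permutation p = 0.0571). This call depended on the scaling. With library size alone in place of TMM, which placed the median log2 fold change of all genes at 0.13, Ezh1 was at -0.10 (adjusted p = 0.366 in edgeR), and without AdGFP replicate 4 or AdMETTL5 replicate 3 its adjusted p was 0.0523 and 0.0543.

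The genes of both histone chaperones rose by small amounts. Rbbp4 had 72.0, 76.4, 76.3 and 67.6 CPM with AdGFP and 89.2, 87.3, 91.3 and 85.9 CPM with AdMETTL5. Rbbp7 had 301, 314, 293 and 271 CPM with AdGFP and 331, 329, 333 and 333 CPM with AdMETTL5. Neither gene's groups overlapped, and the AdMETTL5 libraries of Rbbp7 lay close together. Their log2 fold changes were small, at 0.28 for Rbbp4 (standard error 0.0503, adjusted p = 6.25e-04 in edgeR) and 0.17 for Rbbp7 (standard error 0.0489, adjusted p = 0.0113 in edgeR).

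The accessory subunits divided. Mtf2, a Polycomb-like subunit that binds unmethylated CpG DNA, had 18.5 to 22.4 CPM with AdGFP and 21.7 to 27.1 CPM with AdMETTL5 (log2 fold change 0.25, standard error 0.0853, adjusted p = 0.0246 in edgeR). Aebp2, a zinc finger subunit that stabilizes the complex on chromatin, had 15.1 to 17.6 CPM with AdGFP and 16.9 to 18.9 CPM with AdMETTL5 (log2 fold change 0.18, standard error 0.0710, adjusted p = 0.0464 in edgeR). For both genes 3 of 4 AdMETTL5 libraries were above all AdGFP libraries and the groups overlapped. The call of Mtf2 was lost without AdGFP replicate 3 or 4 or AdMETTL5 replicate 4 (adjusted p of 0.0656 to 0.0753 in edgeR). The call of Aebp2 was lost by DESeq2 (adjusted p = 0.0874) and in 6 of 8 edgeR fits that left out a library, all but those without AdGFP replicate 4 or AdMETTL5 replicate 3. Jarid2, a DNA-binding subunit without demethylase activity, had 24.7 to 27.1 CPM with AdGFP and 24.6 to 30.4 CPM with AdMETTL5, a log2 fold change of 0.10 with a 95% interval of -0.05 to 0.26. Phf19, the other Polycomb-like subunit, had 12.3 to 14.5 CPM with AdGFP and 11.6 to 14.5 CPM with AdMETTL5, a log2 fold change of 0.00 with a 95% interval of -0.19 to 0.20. Neither passed the test.

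**Figure D2:**
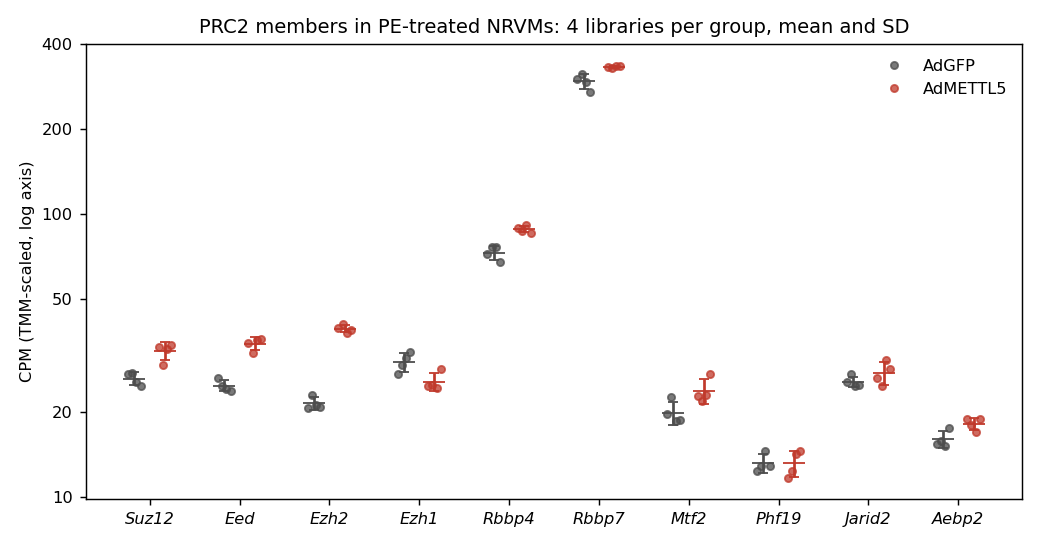
CPM of the 10 PRC2 members (x axis) on a logarithmic y axis in PE-treated NRVMs, with 1 point per library, 4 AdGFP libraries in grey and 4 AdMETTL5 libraries in red, and bars for the mean and SD. Suz12, Eed, Ezh2, Rbbp4 and Rbbp7 separate the groups completely, Ezh2 by the widest margin on this axis, while Ezh1 is the member whose AdMETTL5 mean is lower.

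In counts, 7 of 10 members were called higher against 27.1% of all tested genes, and the groups did not overlap for 5 of 10, all higher, against 25.2% of all tested genes. With library size alone in place of TMM, 8 were called higher and 0 lower, where 5872 of all 15041 tested genes were higher and 2343 lower. The median log2 fold change was 0.22 over the members and -0.00218 over all tested genes. In bulk samples, fewer cells of a type and less RNA per cell cannot be told apart, and marker transcripts of several cell types moved in the same libraries. Markers of proliferating cells were higher in 11 of 14 and lower in 1 of 14, with a summed 668 to 711 CPM in AdGFP and 1018 to 1066 CPM in AdMETTL5 libraries. They were led by the replication helicase genes Mcm6 (log2 fold change 1.15) and Mcm3 (1.18) and by Mki67 (0.79), while the mitotic kinase gene Cdk1 was the one that fell, at -0.28. Cdk1 was named after its value was seen. All 12 tested cardiomyocyte markers were lower, from a summed 47470 to 58228 CPM to 18270 to 20260 CPM, including Myh7 (log2 fold change -2.11) and Myl2 (-2.34). Fibroblast markers were lower in 6 of 7, with 11531 to 12144 CPM against 9112 to 10042 CPM, in cells that had been pre-plated to remove fibroblasts. Of endothelial markers 1 of 4 was higher (Kdr, log2 fold change 0.86), of smooth muscle markers 2 of 4 were higher (Acta2 0.25 and Tagln 0.24) and of macrophage markers 1 of 4 was lower (Adgre1, -0.47). With library size alone in place of TMM, fibroblast markers were 1 higher and 4 lower, macrophage markers 2 higher and 1 lower, endothelial markers 2 higher, and proliferation markers 11 higher and 0 lower, while all 12 cardiomyocyte markers stayed lower. Of these 6 lists 0 markers were without counts in all NRVM libraries. The part of these shifts, and of the lower depth of the AdMETTL5 libraries, in the PRC2 values was not tested.

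Within a library, the ratio of Ezh1 to Ezh2 counts needs no scaling between libraries. In AdGFP libraries there were 1.32, 1.28, 1.47 and 1.56 Ezh1 counts per Ezh2 count, and in AdMETTL5 libraries 0.623, 0.612, 0.637 and 0.731. Ezh1 counts exceeded Ezh2 counts in every AdGFP library and were fewer in every AdMETTL5 library. The mean log2 ratio differed by -1.11 (0.463 of the AdGFP ratio, exact two-sided permutation p = 0.0286, adjusted over the 4 comparisons 0.114). An adjusted value under 0.114 could not be had from a single comparison of this size. Rat exon lengths were not used here, so the rat ratio is one of counts and says nothing of which transcript is more abundant per length.

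**Figure D3:**
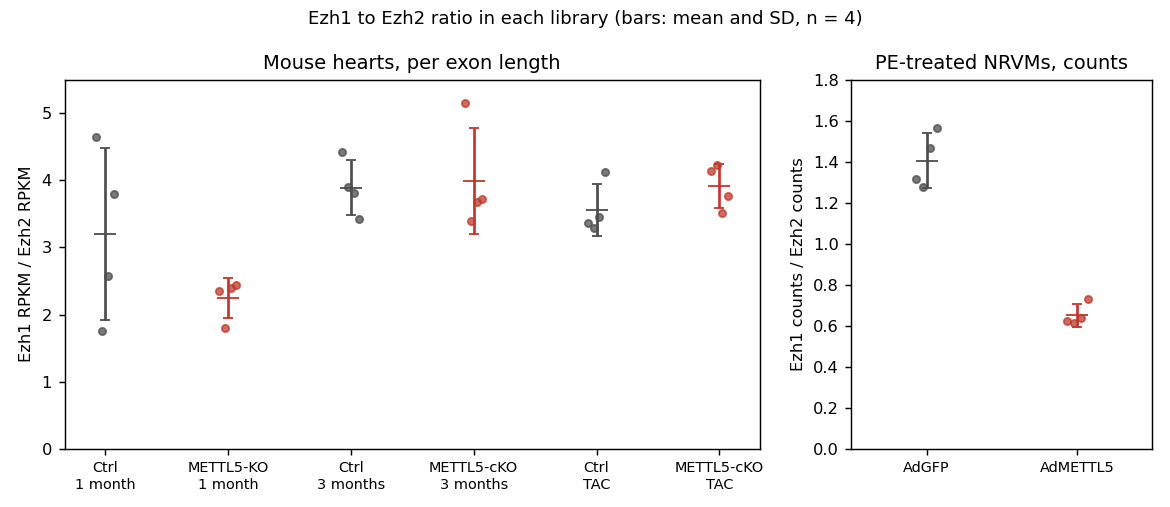
Left, ratio of Ezh1 to Ezh2 RPKM (y axis) in each library of the 6 mouse groups (x axis). Right, ratio of Ezh1 to Ezh2 counts in the AdGFP and AdMETTL5 libraries, which is not per length, so that the 2 y axes cannot be compared. Points are libraries and bars show the mean and SD. The NRVM groups separate at 1.28 to 1.56 against 0.612 to 0.731, while every mouse group overlaps its control.

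In mouse hearts the balance lay with Ezh1. Per exon length, Ezh1 RPKM exceeded Ezh2 RPKM in all 24 heart libraries, by a ratio of 1.76 to 5.16 with a median of 3.60. RPKM are CPM divided by the exon length of a gene in kilobases, taken here from the mouse annotation. The ratio of RPKM was 3.19 ± 1.28 in controls and 2.24 ± 0.302 in METTL5-KO hearts at 1 month. At 3 months it was 3.89 ± 0.409 in controls and 3.99 ± 0.790 in METTL5-cKO hearts, and after TAC 3.56 ± 0.383 and 3.91 ± 0.330 (SD, n = 4 each). The difference of the mean log2 count ratio was -0.42 at 1 month, 0.02 at 3 months and 0.14 after TAC, with exact permutation p-values of 0.229, 0.943 and 0.171 (adjusted over the 4 comparisons 0.305, 0.943 and 0.305). The value at 1 month moved with single control hearts, to -0.21 without control replicate 1 (exact permutation p = 0.486) and to -0.68 without control replicate 2 (p = 0.0286, unadjusted). With a library left out, the value after TAC ran from 0.0997 to 0.21, the latter without 1 control library (exact permutation p = 0.0571). Control and METTL5 groups overlapped in all 3 tables, and the widest spread was that of the controls at 1 month, between 1.76 and 4.64. The size of the ratio depends on the exon model. With the exons of all annotated transcripts, which lengthen Ezh2 from 2802 to 6678 bases and Ezh1 from 6081 to 7440 bases, the group means lay between 4.37 and 7.77.

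Levels per length ordered the members in the heart. Mean RPKM over the 24 libraries was 25.2 for Rbbp7 and 11.5 for Rbbp4, followed by 4.43 for Eed, 4.25 for Ezh1, 2.88 for Suz12, 2.55 for Jarid2, 2.09 for Mtf2, 1.98 for Aebp2, 1.29 for Ezh2 and 0.308 for Phf19. Rbbp7 alone held 44.7% of the summed RPKM of the members. Rbbp7 exceeded Rbbp4, Rbbp4 exceeded Eed, Ezh1 exceeded Suz12 and Ezh2 exceeded Phf19 in all 24 libraries. Neighbours in the middle of the order did not separate. Eed was above Ezh1 in 13 of 24 libraries and Mtf2 above Aebp2 in 15 of 24, and Suz12 was above Jarid2 and Jarid2 above Mtf2 in 18 of 24 each. With the exons of all transcripts Eed had a mean RPKM of 2.39 and Ezh1 of 3.47, so the order of these genes also rests on the exon model. The histone chaperones are also subunits of other complexes, so their mRNA level is not a level of PRC2.

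**Figure D4:**
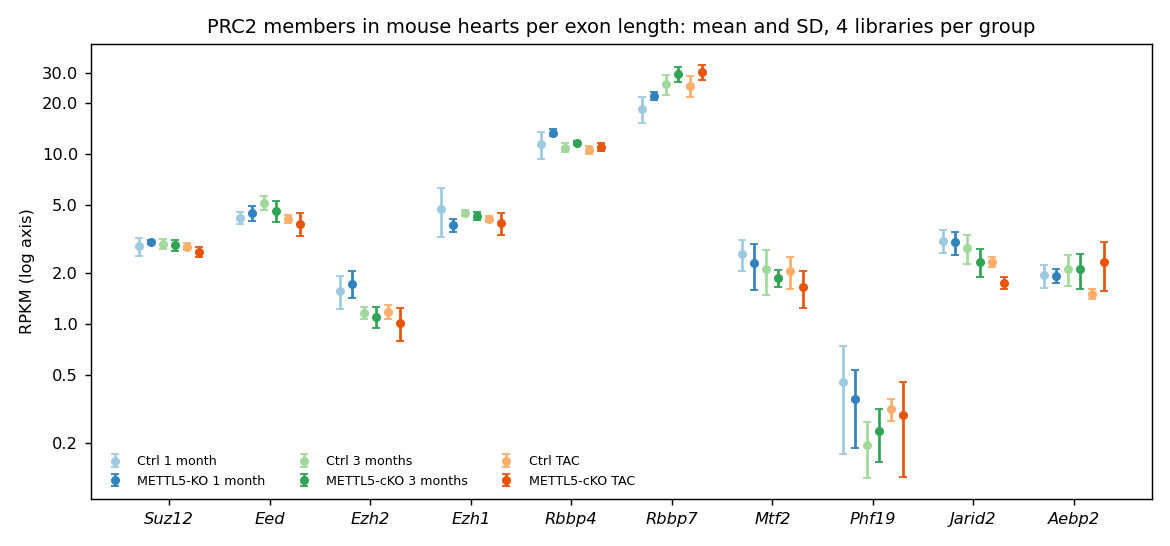
Mean RPKM (logarithmic y axis) of the 10 PRC2 members (x axis) in each of the 6 mouse groups, with bars for the SD over 4 libraries. Rbbp7 and Rbbp4 lie above all other members and Phf19 below them, and Jarid2 is lowest in METTL5-cKO hearts after TAC.

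Suz12 varied little across the hearts, with an SD of 0.225 RPKM over the 24 libraries. Its group means lay between 2.64 RPKM in METTL5-cKO hearts after TAC and 3.03 RPKM in METTL5-KO hearts at 1 month, and the 24 libraries spanned 2.5 to 3.31 RPKM. Ezh2 had means of 1.57 and 1.73 RPKM in the 2 groups at 1 month and of 1.01 to 1.18 RPKM in the 4 older groups. Jarid2 had means of 3.08 and 3.02 RPKM in the controls and METTL5-KO hearts at 1 month, 2.80 and 2.32 RPKM in the controls and METTL5-cKO hearts at 3 months, and 2.32 and 1.74 RPKM in those after TAC. Age, surgery and the separately deposited tables cannot be told apart in these levels, and no test was made across them.

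At 1 month, METTL5-KO hearts were compared with controls to see whether loss of METTL5 in the whole body alters the young heart. No member was called among the 10, at a background of 0.00612% of 16329 tested genes, and 0 of 10 had an unadjusted p under 0.05, against 4.57% of tested genes, or were called by DESeq2. Suz12 had 12.3, 13.4, 10.9 and 10.3 CPM in controls and 12, 12.7, 12.6 and 12.4 CPM in METTL5-KO hearts. The METTL5-KO libraries lay within the range of the controls. Its log2 fold change of 0.08 had a 95% interval of -0.16 to 0.31. The widest differences were those of Phf19 at -0.33 (95% interval -1.34 to 0.67) and Ezh1 at -0.32 (95% interval -0.77 to 0.13). Ezh1 had 39.9, 19.9, 23.6 and 25.5 CPM in controls and 24.3, 21.9, 21.8 and 19.3 CPM in METTL5-KO hearts, so the difference leaned on 1 control library at 39.9 CPM. Without it the log2 fold change of Ezh1 was -0.07.

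At 3 months, the question was whether loss of METTL5 in cardiomyocytes alters the unstressed adult heart. Again 0 of 10 members were called, at a background of 0.0732% of 16391 tested genes, with 0 at an unadjusted p under 0.05, against 7.05% of tested genes, and 0 by DESeq2. Suz12 had 14.9, 13.1, 12.9 and 13.0 CPM in controls and 14.2, 12.2, 13.6 and 12.8 CPM in METTL5-cKO hearts. The groups overlapped, and the log2 fold change was -0.03 with a 95% interval of -0.24 to 0.18. The log2 fold change was -0.07 for Ezh2, -0.05 for Ezh1 and -0.16 for Eed, and across the members it lay between -0.27 for Jarid2 and 0.27 for Phf19. The median over the members was -0.04 against 0.000709 over all tested genes. In the other lists described below, no gene passed the test at 1 or 3 months.

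After TAC, METTL5-cKO hearts were compared with controls under pressure overload. Jarid2 was the member that fell. It had 15, 15.7, 13.4 and 15.2 CPM in controls and 10.7, 9.93, 11.9 and 11.6 CPM in METTL5-cKO hearts. Every METTL5-cKO library was below every control library. The means were 14.8 ± 1.01 and 11.0 ± 0.890 CPM (SD, n = 4), which differed by -0.43 on the log2 scale (0.744-fold, standard error 0.0883, 95% interval -0.63 to -0.23), with an adjusted p of 0.0185 in edgeR and an exact permutation p of 0.0286. Jarid2 was the 1 of 10 members called, against 12.7% of the 16340 tested genes, and the 1 of 10 whose groups did not overlap, against 18.6%. Neither share was above the background. The call was lost with library size alone (log2 fold change -0.28, adjusted p = 0.0914 in edgeR), which placed the median log2 fold change of all genes at 0.14, and without control replicate 2 or 4 or METTL5-cKO replicate 2, where the adjusted p was 0.057, 0.0654 and 0.0614.

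Aebp2, which shares its form of PRC2 with JARID2, had 13.9, 12.6, 11.8 and 12.7 CPM in controls and 16, 25.3, 23.4 and 12.4 CPM in METTL5-cKO hearts. Among the METTL5-cKO libraries 2 were far above the controls, 1 was slightly above them and 1 was among them. The log2 fold change of 0.60 (standard error 0.203, 95% interval 0.14 to 1.05) missed the adjusted threshold in edgeR (p = 0.0152, adjusted p = 0.0797) and had an exact permutation p of 0.114. DESeq2's Wald test called it, with a log2 fold change of 0.62 and an adjusted p of 0.0368, and edgeR called it without METTL5-cKO replicate 4 (adjusted p = 0.00767).

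**Figure D5:**
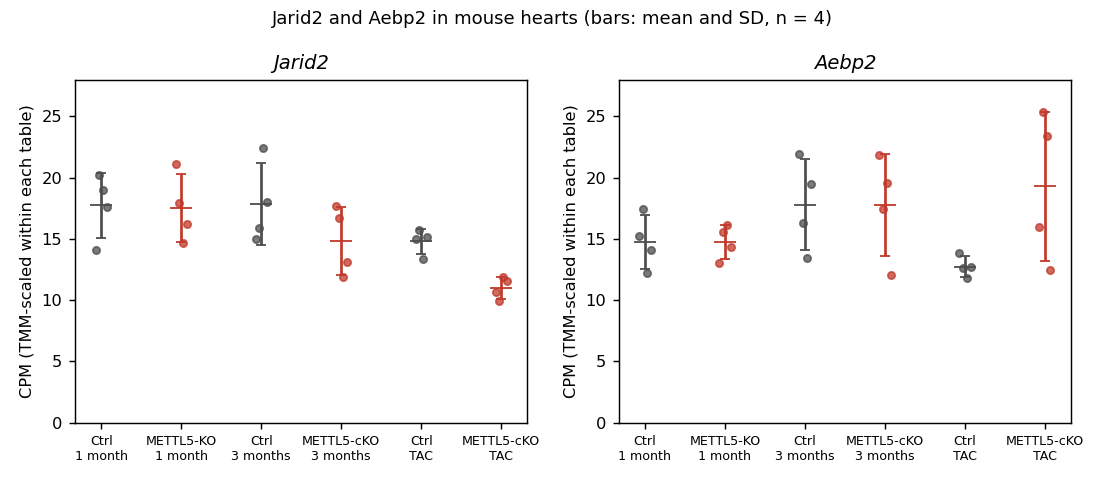
CPM (y axis, TMM-scaled within each table) of Jarid2 on the left and Aebp2 on the right in the 6 mouse groups (x axis), with 1 point per library and bars for the mean and SD of 4 libraries. After TAC, the 4 METTL5-cKO libraries of Jarid2 lie below the 4 controls, and those of Aebp2 spread from 12.4 to 25.3 CPM.

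The core subunits did not pass the test after TAC. Suz12 had 12.1, 13.7, 13.1 and 12.9 CPM in controls and 11.2, 12.9, 12.1 and 11.3 CPM in METTL5-cKO hearts. Among the METTL5-cKO libraries 3 were below the lowest control. Its log2 fold change was -0.12 with a 95% interval of -0.30 to 0.05 (adjusted p = 0.323 in edgeR), so a fall larger than 0.30 on the log2 scale lay outside the interval. Ezh2, at 3.01 to 3.77 CPM in controls and 2.28 to 3.80 CPM in METTL5-cKO hearts, had a log2 fold change of -0.23 (95% interval -0.60 to 0.14). Ezh1 was at -0.10, Eed at -0.11, Rbbp4 at 0.04, Rbbp7 at 0.25, Mtf2 at -0.33 and Phf19 at -0.13, and none of these passed the test. The signs of Suz12, Ezh1, Eed and Phf19 turned positive with library size alone, so no direction is read from them.

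Markers of other cells moved in the same TAC libraries, where 1074 of all 16340 tested genes were called higher and 997 lower. Fibroblast markers were higher in 7 of 8, led by Postn (log2 fold change 3.64), with a summed 578 to 767 CPM in controls and 924 to 2987 CPM in METTL5-cKO hearts. Endothelial markers were lower in 4 of 6, led by Kdr (-0.70), with a summed 641 to 767 CPM and 434 to 577 CPM. Cardiomyocyte markers were lower in 3 of 13, with a summed 53565 to 58368 CPM and 42660 to 52134 CPM, and proliferation markers were called in 0 of 13. Of macrophage markers 1 of 6 was higher (Adgre1, log2 fold change 0.71), and of smooth muscle markers 0 of 4 were called. With library size alone fibroblast markers were higher in 8 of 8, cardiomyocyte markers lower in 4 of 13 and smooth muscle markers higher in 1 of 4. By that scaling 2060 of all tested genes were higher and 524 lower. The part of these shifts in the values of Jarid2 and Aebp2 was not tested.

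Whether the METTL5-cKO effect differed between TAC and unstressed hearts was tested by an interaction term over the 16 libraries. Among the 10 members 0 were called, at a background of 0.00586% of 17070 genes. The difference of the log2 fold changes was -0.14 for Jarid2 (95% interval -0.56 to 0.27) and -0.08 for Suz12 (95% interval -0.32 to 0.17). Aebp2 was farthest from 0, at 0.62 (95% interval -0.04 to 1.28, adjusted p = 0.456 in edgeR's quasi-likelihood test). The call of Jarid2 after TAC is thus not shown to differ from its value at 3 months.

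The rest of the Polycomb system was read from further lists of genes. Among other accessory subunits and inhibitors of PRC2, Epop was lower in METTL5-cKO hearts after TAC, with 0.392 CPM against 0.865 CPM in controls (log2 fold change -1.14, adjusted p = 0.0314 in edgeR). Both levels were low, and how far the filter on low counts selected this direction was not tested. In NRVMs Epop (log2 fold change 0.47) and Lcor (0.45) were higher and the Polycomb-like gene Phf1 was lower (-0.34). That is 2 of 4 tested genes higher and 1 lower, where 27.1% of all tested genes were higher and 25.7% lower. EPOP and LCOR-derived proteins bind the form of PRC2 that holds the Polycomb-like subunits. Of the enzymes that remove the mark, Kdm6a was higher in NRVMs (log2 fold change 0.43, adjusted p = 1.96e-05 in edgeR), and 0 of 2 were called after TAC.

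PRC1 ubiquitinates histone H2A, and some of its forms bind the PRC2 mark. Its list, which covers several forms, had 11 of 25 tested genes higher and 3 lower in NRVMs. Of all tested genes 27.1% were higher and 25.7% lower. Among the higher genes were Kdm2b (log2 fold change 0.42), Phc2 (0.35) and Rybp (0.31), which encode a CpG-binding subunit, a polyhomeotic subunit and a RING1-binding subunit. After TAC, where 12.7% of all tested genes were called, 1 of 25 was called, Pcgf5, which was higher by a log2 fold change of 0.58 (adjusted p = 0.0345 in edgeR). The deubiquitinase complex PR-DUB, which removes the PRC1 mark, had 7 of 10 higher and 1 lower in NRVMs, led by its catalytic subunit Bap1 (log2 fold change 0.30), Mbd6 (0.43) and Asxl1 (0.41), and 0 of 10 after TAC. NuRD, a remodelling and deacetylase complex that contains RBBP4 and RBBP7, had 5 of 12 higher and 3 lower in NRVMs, led by Mta2 (0.45) and the deacetylase gene Hdac1 (0.32), and 0 of 12 after TAC. The median log2 fold change in NRVMs was 0.09 for PRC1, 0.33 for PR-DUB and 0.09 for NuRD, beside 0.22 for the PRC2 members and -0.00218 for all tested genes. With library size alone the NRVM counts were 15 higher and 2 lower for PRC1, 8 and 0 for PR-DUB, and 8 and 0 for NuRD. By that scaling 5872 of all 15041 tested genes were higher and 2343 lower.

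Genes widely known as PRC2 targets were few in these libraries. Of the Hox genes, 32 were in the rat table, 17 had no count in any NRVM library and 2 passed the filter, of which 0 were called. The summed Hox level was low, at 1.25 to 2.22 CPM in AdGFP and 3.24 to 4.66 CPM in AdMETTL5 libraries. These ranges did not overlap, and the difference was not tested. Hoxd13 had no count in any AdGFP library and 5 to 15 counts in the AdMETTL5 libraries. That is at least 3.53-fold above a floor of 3 counts per library, and Hoxd13 was named after its value was seen. Of the 39 mouse Hox genes, 20 had no count in any TAC library and 0 of 5 tested were called. Of the other listed targets, 7 of 12 tested were higher and 1 lower in NRVMs, against 27.1% and 25.7% of all tested genes. With library size alone 8 were higher and 0 lower, where 5872 of all 15041 tested genes were higher and 2343 lower. The pacemaker channel gene Hcn4 went from 74.2 to 119 CPM (log2 fold change 0.68) and the cell cycle inhibitor gene Cdkn1c from 26.5 to 66.8 CPM (1.33). The T-box gene Eomes had no count in any AdGFP library and 14 to 18 counts in the AdMETTL5 libraries, at least 6.05-fold higher than a floor of 3 counts per library. Eomes could pass the filter on low counts only through the AdMETTL5 libraries, so higher was the only direction open to it. It therefore adds no support to the 7 of 12. After TAC 1 of 7 tested targets was called, against 12.7% of all tested genes, and Cdkn1c was lower in METTL5-cKO hearts, from 19.7 to 12.7 CPM (log2 fold change -0.64, adjusted p = 0.0366 in edgeR). No relation between these genes and the mRNA of PRC2 members was tested.

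The Mef2 family, muscle transcription factors, split in NRVMs, with Mef2c (log2 fold change 0.60) and Mef2b (1.83, at 0.309 and 1.12 CPM) higher and Mef2a (-0.40) and Mef2d (-0.21) lower. That is 2 of 4 tested genes higher and 2 lower, where 27.1% of all tested genes were higher and 25.7% lower. Mef2b was near the floor with AdGFP and passed the filter on low counts mainly through the AdMETTL5 libraries, where it was higher. Its call therefore adds no support to that count. The call of Mef2d was lost with library size alone (log2 fold change -0.0798, adjusted p = 0.325 in edgeR). None of the 3 tested after TAC was called.

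Promoters of the mouse genes are shown for Ezh2, Eed and Suz12, which rose in NRVMs, and for Ezh1, which fell. They are the 250 bases before the start of the RefSeq transcript in GRCm38, on the strand of the gene, at chr6:47595031-47595280 on the minus strand for Ezh2, chr7:89980977-89981226 on the minus strand for Eed, chr11:79992856-79993105 on the plus strand for Suz12 and chr11:101226464-101226713 on the minus strand for Ezh1. In the mouse annotation Ezh2 spans chr6:47530139-47595341, so its whole window lies inside the annotated gene and not before its outermost start. The Eed window reaches a few bases into its annotated gene. Rat promoters were not analysed here, although the changes were measured in rat cells. Capitals mark the CCAAT box on either strand (CCAAT or ATTGG).
Ezh2: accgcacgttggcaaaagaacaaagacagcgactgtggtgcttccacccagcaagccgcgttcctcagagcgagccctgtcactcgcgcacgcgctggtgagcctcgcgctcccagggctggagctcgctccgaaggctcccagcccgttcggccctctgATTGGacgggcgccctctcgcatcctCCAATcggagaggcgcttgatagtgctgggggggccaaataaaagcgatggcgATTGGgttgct
Eed: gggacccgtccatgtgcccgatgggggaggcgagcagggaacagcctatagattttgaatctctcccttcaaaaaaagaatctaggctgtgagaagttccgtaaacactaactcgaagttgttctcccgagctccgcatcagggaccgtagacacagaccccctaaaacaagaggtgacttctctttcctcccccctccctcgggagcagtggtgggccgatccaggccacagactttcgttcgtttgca
Suz12: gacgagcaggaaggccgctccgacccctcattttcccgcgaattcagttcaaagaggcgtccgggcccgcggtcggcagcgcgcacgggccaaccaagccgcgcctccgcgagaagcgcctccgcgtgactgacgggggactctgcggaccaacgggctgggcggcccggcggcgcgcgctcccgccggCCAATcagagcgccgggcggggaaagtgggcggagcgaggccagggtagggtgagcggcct
Ezh1: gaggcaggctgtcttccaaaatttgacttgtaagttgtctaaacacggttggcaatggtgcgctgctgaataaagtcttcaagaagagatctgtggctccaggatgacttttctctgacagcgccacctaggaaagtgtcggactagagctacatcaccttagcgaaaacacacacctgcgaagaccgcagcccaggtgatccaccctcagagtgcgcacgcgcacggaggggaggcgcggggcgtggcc
The Ezh2 window holds 3 CCAAT boxes, that of Suz12 holds 1, and those of Eed and Ezh1 hold none. CCAAT boxes stood in the windows of 7 of the 10 members, and in 33.8% of 32851 promoter windows of the same length. The first is a count of genes and the second a share of windows, so they cannot be compared directly. Jarid2 and Mtf2 have 2 windows each and Aebp2 has 3. The box stood only in window 1 of Jarid2, window 2 of Mtf2 and window 3 of Aebp2. Of E2F motifs only the 3 strings TTTCGCGC, TTTGGCGC and TTCCCGCC were searched. They were in no window of a member and in 2.48% of all windows on either strand. Other forms of the E2F site, such as TTTCCCGC in the printed Suz12 window, were not searched, so a lack of E2F sites is not shown. The palindromic NRF1 motif was in no window of a member and in 0.782% of all windows. A match is a description of letters and not a bound site, and the lack of one says only that these letters are not in this window.

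Across the hearts the members varied together only in part. Within groups, the 45 pairs of members had a median Pearson r of 0.13 over the 24 libraries, and 32 were above 0. The highest were Suz12 with Phf19 (0.64), Suz12 with Aebp2 (0.64) and Rbbp7 with Aebp2 (0.63), and the lowest was Ezh1 with Rbbp4 (-0.60). These are correlations of deviations from group means, they share library depth and scaling, and Phf19 had the lowest counts. Control replicate 2 at 1 month was the highest of its group for Suz12, Phf19, Aebp2 and Rbbp7, and so was METTL5-cKO replicate 2 after TAC. How far the highest correlations rest on these libraries was not tested. Among 15542 genes, those most like Suz12 by this measure were Smc3 (0.77), Rpa1 (0.76), Med14 (0.74), Umad1 (0.74) and Nr2c2 (0.72). Those most like Ezh2 were Plekhh2 (0.74), Nkapd1 (0.74), Gm27219 (0.74), Naa40 (0.71) and Mrm1 (0.70). No p is given for them.

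In the mouse annotation Suz12 lies at chr11:79993106-80034123 on the plus strand and Ezh2 at chr6:47530139-47595341 on the minus strand. Exons of Suz12, Ezh2, Eed, Rbbp4, Rbbp7 and Mtf2 overlap exons of a gene on the other strand, for Suz12 the long noncoding RNA Gm26563 and for Ezh2 the long noncoding RNA Gm26625. Since the strandedness of the counting is not given in the sources used here, reads of such pairs cannot be told apart. Ezh1 at chr11:101191115-101226463 on the minus strand, Jarid2, Phf19 and Aebp2 overlap no other annotated exon.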

How the data were processed

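RNA sequencing of 24 mouse heart libraries and 8 NRVM libraries was taken from 4 deposited tables of estimated counts per gene. The authors aligned reads with HISAT2 2.0.4 to GRCm38 or Rnor_6.0 and made these estimated counts with StringTie 2.1.4, and their processing notes also name DESeq2 1.4.5. The values are whole numbers without scaling, whereas the plan had assumed plain counts. Total counts per library ranged from 14324700 to 21804907, and log2 fold changes of the tested genes had median standard errors of 0.175 (1 month), 0.157 (3 months), 0.134 (TAC) and 0.0807 (NRVMs). Groups came from the labels. Only the columns at 1 month name single samples. The others name a group, and their replicate numbers here are names. No per-sample column was left unused (0 columns). Between libraries of a group the lowest chi-square per degree of freedom was 2.16, so no library was counted as a duplicate.

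Separate fits were made for the tables in R 4.3.3 by edgeR 4.0.16, using TMM library sizes, the filterByExpr filter, glmQLFit and glmQLFTest, and Benjamini-Hochberg adjustment over all genes tested. The filter asked for 15 counts in all and for a level worth 10 counts in a library of median size. That level had to be reached in at least as many libraries as a group holds, not in every library. A gene was called at an adjusted p under 0.05. For single members the mean log2 CPM (prior count 2) was also permuted exactly and two-sided over 70 labelings. The Ezh1 to Ezh2 balance is the mean log2 ratio of counts with 0.5 added, with the same permutation test. RPKM used union exon lengths of GENCODE M21 (GRCm38, basic transcripts) and 1 TMM scaling over the 24 heart libraries. Promoter sequences are from RefSeq (GRCm38). A rat gene symbol found on more than 1 row was left out of the lists. The code was tested on simulated counts.

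The genes named were Mettl5, the 10 members, up to 4 called genes of each list with the smallest adjusted p, and the 5 genes most like Suz12 and Ezh2. Some genes that this rule selects are left out here. The members and lists were chosen with earlier results of these data known. Alternatives were DESeq2 size factors or library size alone in edgeR, other filters on low counts, DESeq2 1.42.0, other thresholds, another pseudocount, the replicate number as a block for the youngest hearts, and the omission of each library in turn. The exon lengths of all transcripts and the scalings of the lists were added after the data were seen.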

Additional observations from a re-analysis of the deposited data

Results flagged for a closer look

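Among 88 groups of 4 libraries (10 members and the Ezh1 to Ezh2 balance in 8 groups), 8 held a library whose gap to the nearest of the others was large for the range of the group (above Dixon's 95% critical value), and chance flags about 1 in 20, or 4.4. Phf19, the member with the lowest level, gave 3 of them, at 3.04 CPM in control replicate 2 at 1 month (others 0.901 to 1.21), 1.49 CPM in control replicate 1 after TAC (others 1.12 to 1.14) and 2.05 CPM in METTL5-cKO replicate 2 after TAC (others 0.749 to 0.849). Ezh1 was 28.4 CPM in AdMETTL5 replicate 4 (others 24.2 to 24.9), the library through which the NRVM groups overlapped. Suz12 was 14.9 CPM in control replicate 1 at 3 months (others 12.9 to 13.1). Mtf2 was 6.56 CPM in METTL5-cKO replicate 2 at 3 months (others 8.18 to 8.38). Rbbp4 was 46.2 CPM in METTL5-cKO replicate 4 after TAC (others 50.6 to 51.4). The log2 ratio of Ezh1 to Ezh2 counts was 1.96 in METTL5-KO replicate 2 at 1 month (others 2.35 to 2.40). The causes were not tested.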

How the results depend on the processing

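The NRVM calls of Ezh2, Eed, Suz12, Rbbp4 and Rbbp7 held under the planned scalings, filters, DESeq2 and the omission of each library. Of 42 repeats of counts of called members and of balances, 37 gave the same or a near value and 5 moved. After TAC the count of 1 became 0 with library size alone, 2 with DESeq2 and 2 at an unadjusted p, and in both TAC hearts and NRVMs it was 0 with an absolute log2 fold change over 1. Without single libraries it was 0 to 2 after TAC, 6 to 7 in place of 8 in NRVMs, and 0 at 1 and 3 months. With a library left out, the NRVM balance stayed between -1.17 and -1.06, that at 1 month between -0.68 and -0.21 and that after TAC between 0.0997 and 0.21, and the balance at 3 months, near 0, ran from -0.10 to 0.0943. Library size alone turned the sign of log2 fold changes that passed no test: Jarid2 at 1 month (0.0407), Suz12 (0.0194) and Aebp2 (0.0502) at 3 months, Suz12 (0.0248), Ezh1 (0.0501), Eed (0.0378) and Phf19 (0.0189) after TAC, and the interaction of Suz12 (0.00533). Other turns of sign lay beside 0: Aebp2 at 1 month with 10 counts in every sample (-0.000196) and at 3 months with DESeq2 (0.000158), and Phf19 in NRVMs with DESeq2 size factors (-0.00246), no filter (-0.00177) and DESeq2 (-0.00914). Library size alone also gave 79.7% of called genes as higher after TAC against 51.9% with TMM, and 71.5% against 51.4% in NRVMs, where it called Jarid2 (0.24, adjusted p = 0.0166 in edgeR). The call of Aebp2 in NRVMs was lost with DESeq2 size factors (adjusted p = 0.0502), no filter (0.0619) and DESeq2 (0.0874). With a library left out, signs that passed no test also turned, within -0.12 to 0.0578 for Jarid2, -0.31 to 0.00605 for Mtf2, -0.70 to 0.20 for Phf19 and -0.0754 to 0.0934 for Aebp2 at 1 month, -0.0724 to 0.0204 for Suz12, -0.15 to 0.00816 for Ezh2 and -0.12 to 0.14 for Aebp2 at 3 months, -0.60 to 0.0102 for Phf19 after TAC and -0.0503 to 0.0560 for Phf19 in NRVMs. The causes were not tested.

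With a replicate block for the hearts of 1 month, the only table whose columns carry the replicate numbers of the labels, 0 members were called, as without the block, and Suz12 was at 0.08. Same-numbered libraries correlated at -0.11 to 0.24 and did not all exceed 0.1. Of controls 1 of 4, and of METTL5-KO hearts 2 of 4, correlated best with the same number in the other group. A pairing beyond the number was thus not shown, and so few libraries cannot exclude one.

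Depth limits Phf19 and Ezh2 in the hearts, where Ezh2 had 52 to 113 counts per library. The spread between hearts limits small changes, since intervals of Suz12 reached 0.31 at 1 month and 0.18 at 3 months on the log2 scale.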
